A study of Mus musculus with 8 samples.

Results

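H3K4me3 and H3K27me3 were compared within mouse germline stem cells grown for about 5 months (5M), using the 4 libraries of that age out of 8 in the series: 2 for H3K4me3 and 2 for H3K27me3. Germline stem cells are the cultured form of spermatogonial stem cells, the testis cells that sustain sperm production. Per the labels, they came from testes of Green mice, strain name C57BL/6 Tg14(act-EGFP)OsbY01, on a DBA/2 background; the genotype is given as wild type, and every group of the series shares that origin. The culture medium held human FGF2, rat GDNF and fetal bovine serum. The remaining 4 libraries, from cells of the same origin grown for about 60 months (60M), appear here only beside a 5M value. Whether the libraries of a mark are separate cultures is not in the labels, and their spread may therefore be technical. The labels also name MNase as an optional step of chromatin preparation without saying for which library. Each library has 1 list of peaks called by the authors, with borders at steps of 1 kb and no read totals, so its depth is unknown. Where no peak is listed, the mark may still be present below the authors' threshold.

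H3K4me3 is written by the SET1/COMPASS and MLL family of methyltransferases and sits at promoters that are active or ready for activity. H3K27me3 is written by Polycomb repressive complex 2 and covers silenced developmental genes, often as wide domains. Sites that carry both marks are called bivalent and are best known from pluripotent stem cells and the germline. Peak lists from a population of cells cannot tell both marks on the same nucleosome from each mark in a different share of the cells. Positions are given as listed and fit the chromosome ends of mm9; no gene was assigned to them, so the labelled cell type was not checked against marker genes.

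The H3K4me3 lists were the longer and the more alike. They held 45933 peaks (library 1) and 47415 peaks (library 2), against 12002 and 14632 peaks for H3K27me3. The mean width was similar, at 2.10 and 2.13 kb for H3K4me3 and 2.15 and 2.38 kb for H3K27me3, but the H3K27me3 lists mixed more peaks of 1 kb (54.3 and 48.7%, against 31.3 and 30.9%) with domains of up to 25 kb, where the widest H3K4me3 peaks had 12 and 14 kb. Of the merged regions of H3K4me3, 90.2% (44188 of 48974) had a peak in both libraries; of those of H3K27me3, 45.0% (7971 of 17722). The results below therefore lean on the H3K27me3 lists for their error, and every count of both marks moved more with the choice of H3K27me3 library than with that of H3K4me3 library.

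Most H3K4me3 regions carried no H3K27me3, while 43.8% of the H3K27me3 regions carried H3K4me3. A region counted for a mark when both libraries had a peak in it, and for the other mark when a peak of each of that mark's libraries shared at least 1 bp with it. Of the 44188 H3K4me3 regions, 3005 also carried H3K27me3 (6.8%, exact binomial 95% interval 6.57 to 7.04%), 39328 (89.0%) had no H3K27me3 peak in either library, and 1855 (4.20%) had one in a single library. From the other side, 3493 of the 7971 H3K27me3 regions carried H3K4me3 (43.8%, interval 42.7 to 44.9%), 4104 (51.5%) had none, and 374 (4.69%) had it in a single library. The intervals cover counting error only, and neighbouring regions are not independent. In units of 1 kb bins, H3K27me3 was listed in both libraries at 0.786% of the genome and H3K4me3 at 3.52%. Within the H3K4me3 bins the share with H3K27me3 was 4.30% (4004 of 93016 bins), 5.48 times the share in the genome as a whole. Of all H3K27me3 bins, 19.3% lay in H3K4me3 bins.

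The spread of these shares followed the H3K27me3 library. H3K27me3 library 1 overlapped 7.01% of the peaks of H3K4me3 library 1 and 7.30% of those of library 2. H3K27me3 library 2, the longer list, overlapped 9.53% and 10.1%. Without H3K27me3 library 1, so that library 2 decided alone, 4532 regions had both marks, and without H3K27me3 library 2 there were 3333. H3K27me3 regions without H3K4me3 numbered 9802 and 8457 in the same settings, more than double the 4104 of the main count, because regions listed in a single library then entered. At equal list lengths 2928 regions had both marks.

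Where the marks overlapped, H3K27me3 reached further than H3K4me3. The H3K4me3 regions with both marks had a mean width of 2.69 kb, against 2.22 kb for those without H3K27me3, and H3K27me3 covered on average 71.1% of each. At 1100 of them (36.6%) it covered the whole region in both libraries. The H3K27me3 regions with both marks had a mean width of 4.90 kb, against 2.43 kb for those without H3K4me3; H3K4me3 covered 41.5% of each, and the whole of 187 (5.35%). Among the single peaks that overlapped, over the 4 pairs of an H3K4me3 with an H3K27me3 library, 40.8 ± 2.06% were staggered (SD, n = 4 pairs, which share libraries). In 39.0 ± 4.13% the H3K4me3 peak lay inside the H3K27me3 peak, in 16.05 ± 1.82% the H3K27me3 peak lay inside the H3K4me3 peak, and in 4.14 ± 0.456% the borders were the same. The H3K4me3 summit fell within the H3K27me3 peak in 60.9 ± 2.82% of overlapping pairs, and the 2 summits shared a 1 kb bin in 15.7 ± 0.724%. The strengths of the overlapping peaks were almost unrelated: Spearman's rho was 0.0398 to 0.0722 and Pearson's r 0.0622 to 0.0890 over 3468 to 5159 pairs of peaks, which share only their position.

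H3K4me3 peaks with H3K27me3 were wider than those without it when any overlap counted, and slightly narrower when the overlap had to include the middle of the peak. A peak was taken as "with" the other mark when both libraries of that mark overlapped it and as "without" when neither did. In library 1, 2880 H3K4me3 peaks with H3K27me3 exceeded the 41216 without it by 0.415 kb on average; in library 2, 3121 exceeded 42304 by 0.474 kb. The mean width was 2.53 ± 0.0593 kb with and 2.09 ± 0.0175 kb without H3K27me3 (SD, n = 2 libraries), and broad peaks of at least 5 kb made up 7.95 ± 0.633% and 2.37 ± 0.170%. A wide peak offers more bins in which any overlap can occur, and the part of this in the difference was not tested. When only the 1 kb bin at the midpoint was asked for the other mark, every peak offered a single bin, and the difference turned to -0.106 and -0.0736 kb. In peaks of 1 and 2 kb that bin is also a border bin, and only from 3 kb on does it lie inside. The part of this change of position in the difference was not tested. The direction of the H3K4me3 width difference therefore depends on how overlap is defined.

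The share of H3K4me3 peaks with H3K27me3 had different shapes over width and over strength. By any overlap it was 4.47 and 4.40% at 1 kb (libraries 1 and 2), 7.04 and 7.65% at 3 kb and 14.6 and 15.4% at 5 kb. It was highest at 8 kb and wider, with 33.8 and 35.6% of only 80 and 101 peaks. At the midpoint the share had its lowest value at 3 kb, 1.98 ± 0.162% (SD, n = 2), between 4.43 ± 0.0500% at 1 kb and 17.2 ± 0.473% at 8 kb and wider. Both libraries traced the same curve. The lowest value at 3 kb and the rise above it were larger than the spread between libraries. At 1 and 2 kb the midpoint bin is a border bin, and from 3 kb on it lies inside. In 3 kb peaks, 6.06 ± 1.15% of the outer bins and 2.91 ± 0.770% of the middle bins had H3K27me3 (SD, n = 4 pairs). The part of bin position in the curve was not tested.

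**Figure D1:**
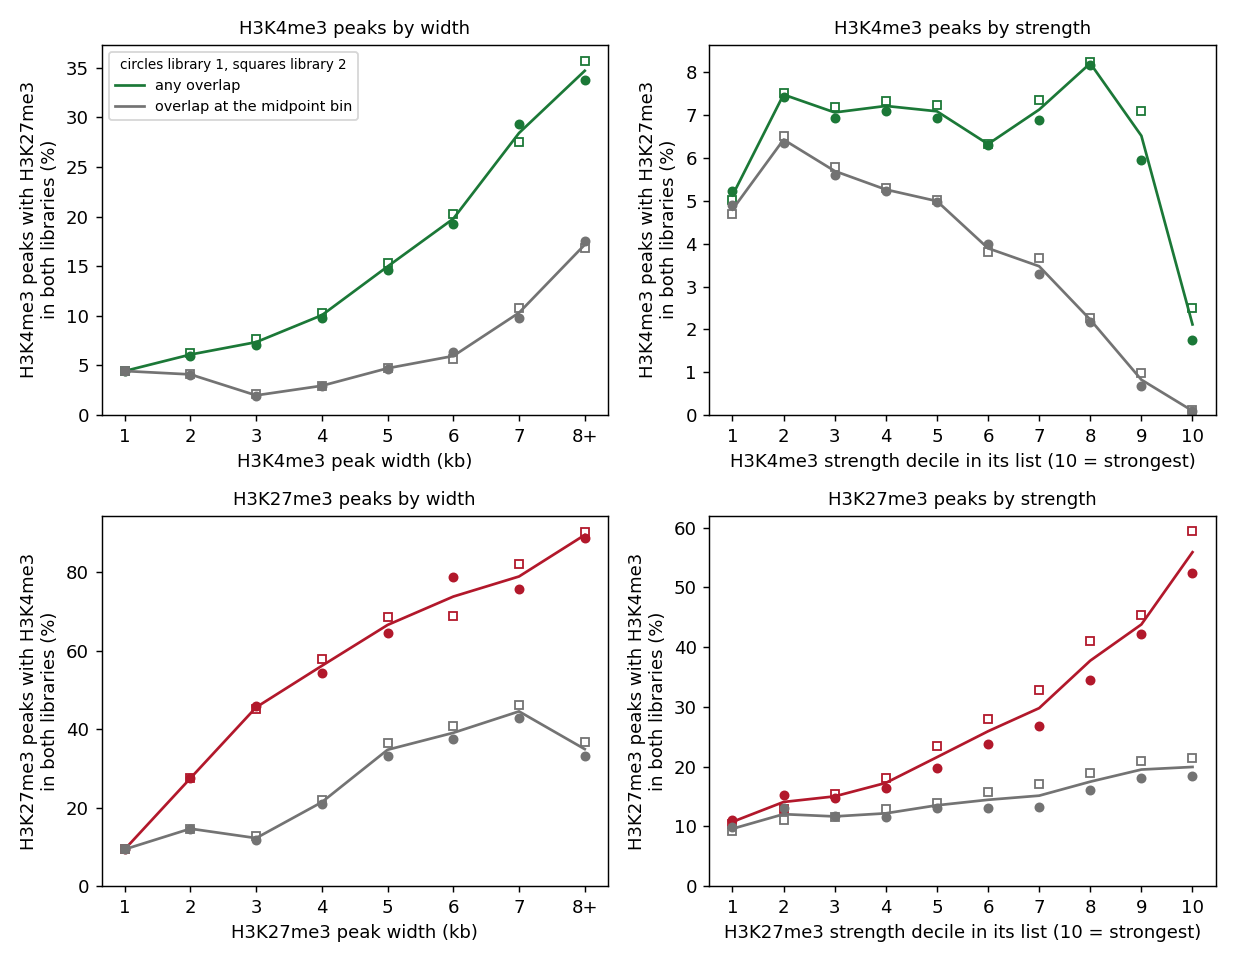
Percentage of peaks with the other mark in both of its libraries at 5M, for H3K4me3 peaks (upper panels) and H3K27me3 peaks (lower panels), by peak width in kb (left) and by decile of strength within the list (right). Circles and squares are libraries 1 and 2 and lines their mean; coloured lines count any overlap, grey lines only overlap at the peak's midpoint, where the H3K4me3 share drops to 0.0962% in the strongest decile.

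The strongest H3K4me3 peaks stood apart by how rarely they carried H3K27me3. Strength is the authors' maximum immunoprecipitation signal ("max IP"), turned into a percentile within its own list because its scaling between lists is not known. In the second decile from the bottom, 7.44 and 7.53% of H3K4me3 peaks had H3K27me3 (335 of 4505 and 356 of 4730), and in the eighth decile 8.18 and 8.24%. In the top decile the share was 1.74% in library 1 (80 of 4594, exact interval 1.38 to 2.16%) and 2.49% in library 2 (118 of 4744, interval 2.06 to 2.97%). The deciles between the second and the ninth showed no steady trend by any overlap. At the midpoint the share went down from 6.43 ± 0.115% in the second decile to 3.47 ± 0.264% in the seventh and 0.823 ± 0.209% in the ninth (SD, n = 2). Mean width rose from 1.13 kb in the bottom decile to 3.69 kb in the top, so the midpoint bin was more often an interior bin. The part of this in the decline was not tested. In the top decile 4 of 4594 and 5 of 4744 peaks had H3K27me3 at the midpoint, or 0.0871% (interval 0.0237 to 0.223%) and 0.105% (interval 0.0342 to 0.246%). Both intervals lie below the 0.786% of all genomic bins with H3K27me3. Whether the strong signal of 1 mark affects the calls of the other was not tested.

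At equal width, H3K4me3 peaks with H3K27me3 were weaker in every width class and in both libraries. At 2 kb the median strength percentile was 39.0 with and 51.5 without H3K27me3 in library 1, and 37.8 and 50.8 in library 2. At 3 kb it was 70.8 against 83.9 and 70.5 against 82.7, and at 5 kb 77.9 against 92.4 and 79.9 against 93.3. Peaks of 1 kb differed least, by -3.78 and -2.20 points; the classes from 2 kb to 8 kb and wider differed by -11.8 to -14.9 points. Averaged over the classes of 1, 2, 3, 4 and at least 5 kb, each weighted by its number of peaks with H3K27me3, the difference was -10.7 ± 0.341 points (SD, n = 2). Without regard to width it was only -3.33 ± 1.28 points, since the peaks with H3K27me3 included more of the wide ones, which rank higher. The lower strength exceeded the spread between libraries in each form. Peaks of a list are not replicates, so no test between peaks was made.

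**Figure D2:**
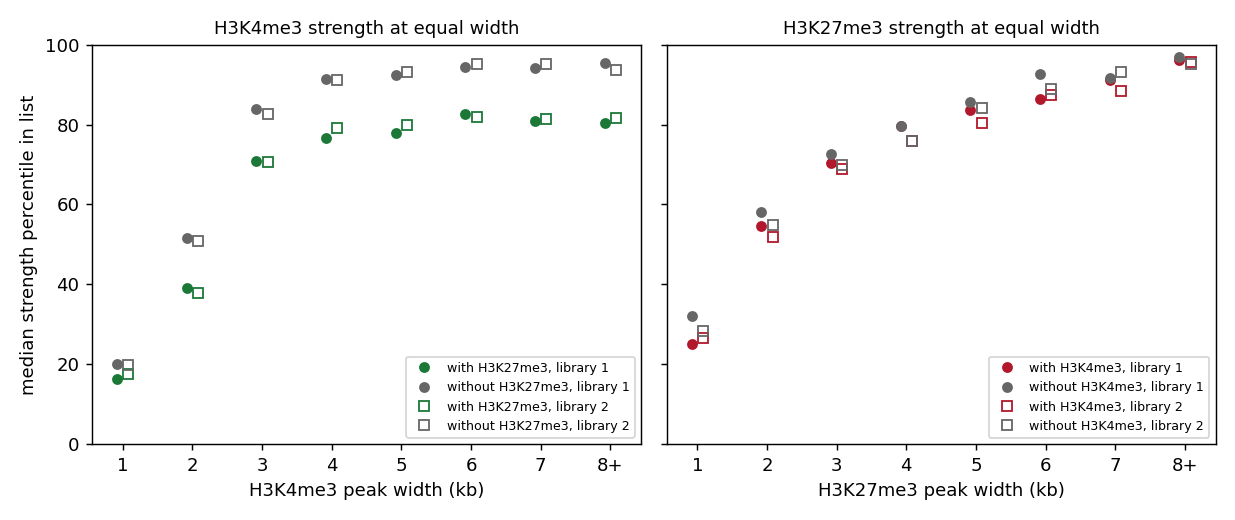
Median strength percentile within the list (vertical axis) by peak width in kb, for H3K4me3 peaks (left) and H3K27me3 peaks (right) at 5M, coloured with and grey without the other mark; filled circles are library 1 and open squares library 2. H3K4me3 peaks with H3K27me3 lie about 12 to 15 points lower from 2 kb on, while the H3K27me3 medians differ by less than 7 points in each class.

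H3K27me3 peaks with H3K4me3 were wider by more than any H3K4me3 difference. In library 1 the 3084 H3K27me3 peaks with H3K4me3 exceeded the 8457 without it by 2.19 kb on average, and in library 2 the 4196 with H3K4me3 exceeded the 9802 without it by 2.42 kb. The mean width was 3.91 ± 0.230 kb with and 1.60 ± 0.0718 kb without H3K4me3 (SD, n = 2). Single bins of 1 kb made up 17.9 ± 2.72% of the former and 65.7 ± 3.35% of the latter. At the midpoint the difference was smaller, at 1.12 and 1.39 kb, and kept its direction. The share with H3K4me3 was 9.39 and 9.43% of H3K27me3 peaks of 1 kb, 46.0 and 45.2% at 3 kb, and 88.8 and 90.4% at 8 kb and wider. For merged H3K27me3 regions it reached 93.8% of the 241 regions of 10 to 14 kb (226 regions, exact interval 89.9 to 96.5%) and 66 of the 69 regions of 15 kb or more. A wider region offers more room for an H3K4me3 peak, and the part of this in the shares was not tested. H3K4me3 regions per 10 kb of H3K27me3 region numbered 1.17 in regions of 1 kb, 1.59 in those of 2 kb, 1.36 at 5 to 9 kb and 1.26 at 15 kb or more. An H3K4me3 region that overlapped only in part counted in full here, which weighs more in narrow H3K27me3 regions. The fraction of the length with H3K4me3 went from 10.6% at 1 kb through 25.2% at 5 to 9 kb to 29.5% at 10 to 14 kb and 28.3% at 15 kb or more.

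H3K27me3 peaks with H3K4me3 also ranked higher in their lists, but not at equal width. The median strength percentile was 70.7 ± 0.102 with and 42.1 ± 0.475 without H3K4me3 (SD, n = 2), a difference of 28.2 points in library 1 and 29.0 in library 2. Over the deciles of H3K27me3 strength the share with H3K4me3 went from 11.1 and 10.5% at the bottom to 52.3 and 59.4% at the top. Within width classes, weighted in the same way as for H3K4me3, the difference was -1.14 ± 1.49 points. It was -2.19 in library 1 and -0.0846 in library 2, a mean smaller than the spread between libraries. The last of these classes pooled all peaks of at least 5 kb, and the part of width within it was not tested. With any overlap, the difference in the 8 separate width classes ran from -6.99 to 0 points in library 1. In library 2 it ran from -4.71 to 0.567 points, and only the class of 8 kb and wider was positive. When H3K4me3 had to lie at the midpoint, H3K27me3 peaks with it had the lower median in all 8 width classes and both libraries. That difference was largest at 3 kb, with -12.6 and -10.3 points, and -2.69 and -2.35 points at 8 kb and wider. Wide H3K27me3 peaks rank high and hold H3K4me3 more often. In 1 kb peaks the medians were 25.1 with and 32.1 without H3K4me3 in library 1 and 26.6 and 28.4 in library 2.

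The borders of the 2 marks met more often than they lay a few kb apart, as far as bins of 1 kb can resolve. Over the 4 pairs of libraries, 2481 to 2812 H3K4me3 peaks overlapped no H3K27me3 peak of the other library but had one that began or ended exactly at their border, a mean of 2638 ± 173 (SD, n = 4 pairs) or 5.65 ± 0.397% of the H3K4me3 peaks. The number was 870 ± 11.9 at a gap of 1 kb, 442 ± 5.19 at 2 kb and 360 ± 39.2 at 3 kb. From 5 to 14 kb it averaged 331 ± 24.7 for each kb of gap, so touching borders were 7.97 ± 0.205 times as frequent as gaps of those lengths. From the side of H3K27me3, 3341 ± 237 peaks (25.2 ± 1.103% of the lists) touched an H3K4me3 peak without overlapping one. Together with overlaps, 54.4 ± 1.54% of the H3K27me3 peaks overlapped or touched an H3K4me3 peak, against 14.1 ± 1.89% of the H3K4me3 peaks. The side showed no preference: H3K27me3 lay to the left of 1540 ± 80.1 and to the right of 1528 ± 135 of the touching H3K4me3 peaks.

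**Figure D3:**
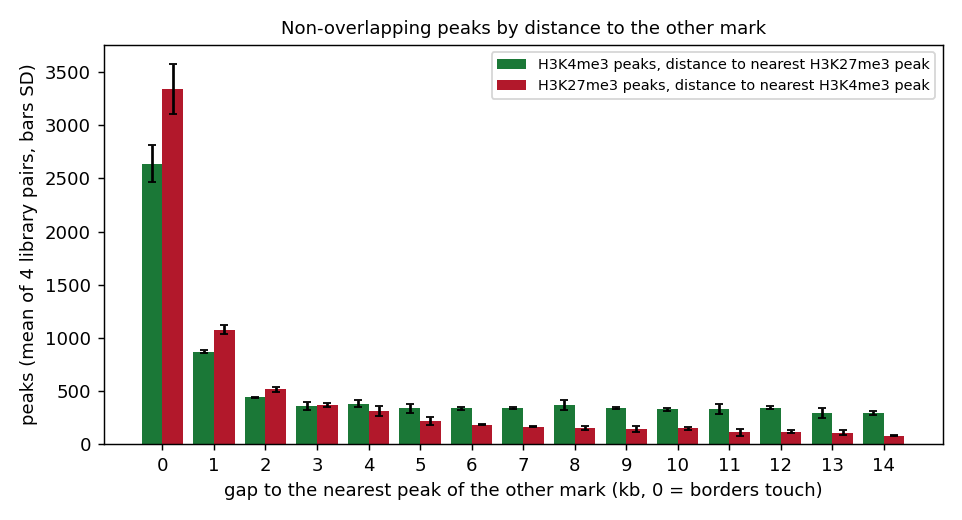
Number of peaks (mean of the 4 pairs of libraries at 5M, error bars SD) that overlap no peak of the other mark, by the gap in kb to the nearest such peak; green bars are H3K4me3 peaks and red bars H3K27me3 peaks. The bars at 0, where borders touch, reach 2638 and 3341 peaks, against 870 and 1077 at a gap of 1 kb.

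A smaller set of H3K4me3 peaks was flanked by H3K27me3 on both sides. These numbered 381 to 480 in the 4 pairs of libraries (430 ± 43.3). The reverse order, an H3K27me3 peak between 2 touching H3K4me3 peaks, was found 148 ± 4.97 times. The flanked H3K4me3 peaks of 2 kb had a median strength percentile of 54.4 ± 2.86, above the 39.1 ± 0.666 of overlapping peaks of that width and nearer the 50.9 ± 0.591 of peaks that lay 15 kb or more from H3K27me3. Those of 3 kb, only 51 to 68 peaks in each pair of libraries, had 82.6 ± 2.37, against 71.2 ± 0.497 and 83.8 ± 0.782. Peaks that touched H3K27me3 on 1 side lay between, with 49.4 ± 0.316 at 2 kb and 78.4 ± 0.634 at 3 kb. At both widths the lowest rank thus belonged to the H3K4me3 peaks that overlapped H3K27me3. H3K27me3 peaks that touched H3K4me3 on both sides were wider (2.53 ± 0.194 kb) and ranked higher (median 69.8 ± 5.38) than those that touched it on 1 side (1.66 ± 0.0349 kb and 47.9 ± 2.29). In all 4 pairs of libraries at once, 1568 borders were shared by an ending peak of 1 mark and a starting peak of the other, which is 1.91% of the H3K4me3 borders and 15.2% of the H3K27me3 borders that were the same in both libraries of the mark. At 1151 of these the H3K4me3 peak overlapped no H3K27me3 peak of either library.

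H3K27me3 was denser just outside H3K4me3 peaks of 3 kb than within them. Around these peaks, 8.74 ± 1.26% of the first bins outside the border had H3K27me3, 6.06 ± 1.15% of the outer bins of the peak did, and 2.91 ± 0.770% of its middle bins (SD, n = 4 pairs). At 20 kb from the border the share was 1.72 ± 0.261%. H3K27me3 peaks of 3 kb gave the matching picture for H3K4me3, with 29.5 ± 2.68% in the first bin outside, 23.4 ± 1.23% in the outer bins, 14.3 ± 1.795% in the middle and 6.69 ± 0.347% at 20 kb. Wider peaks differed in their interior. H3K4me3 peaks of at least 4 kb had H3K27me3 in 12.2 ± 1.48% of the first bins outside, 5.24 ± 1.02% of the second bins inside and 17.0 ± 2.34% of those 4 bins in from the border. In H3K27me3 peaks of at least 4 kb, H3K4me3 was less frequent in the outermost bins (18.97 ± 1.33%) and more frequent deep inside than beside them, with 39.5 ± 2.996% at 4 bins in from the border and 25.02 ± 2.55% in the first bin outside. Bins that far inside exist only in the wider of these peaks. The level also differed with the strength of H3K4me3. Around peaks at or above the 90th percentile the share with H3K27me3 was 3.67 ± 0.916% in the first bin outside and 0.355 ± 0.131% in the second bin inside. Peaks between the 50th and 90th percentile had 9.55 ± 1.36% and 4.51 ± 1.09%, while peaks below the 50th had the opposite order, with 9.61 ± 1.54% and 16.3 ± 3.17%. A second bin inside exists only in peaks of 3 kb or more, and the mean width in the 5 lowest deciles of strength was 1.13 to 1.79 kb. The strongest H3K4me3 peaks had less H3K27me3 both inside and beside them, down to 1.07 ± 0.116% at 10 kb against 2.43 ± 0.379% for the peaks below the 50th percentile.

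**Figure D4:**
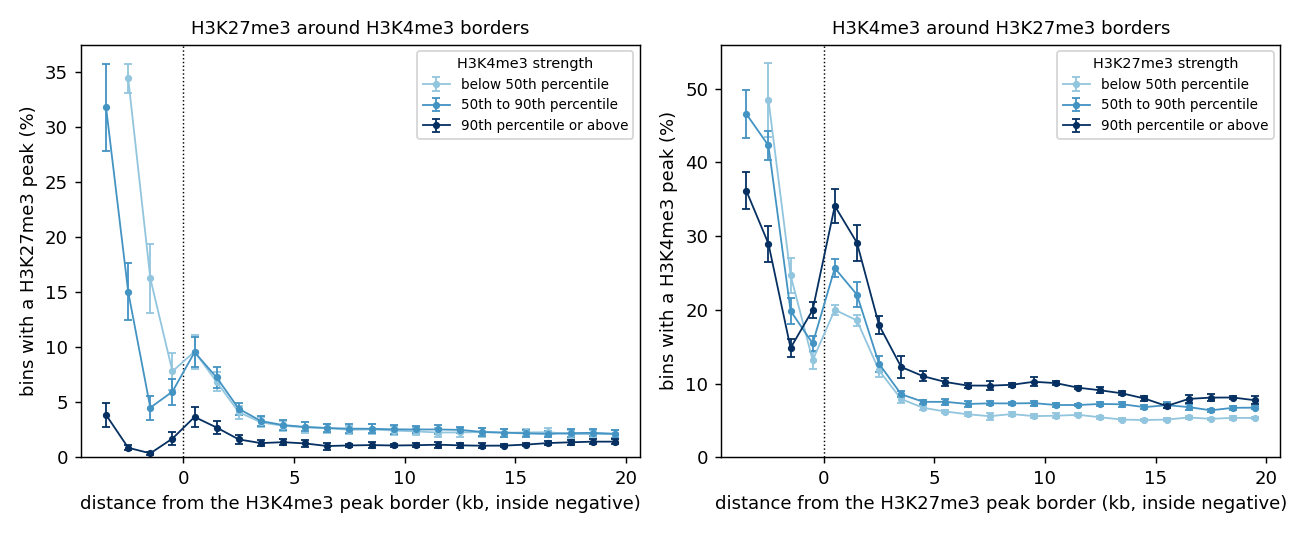
Percentage of 1 kb bins with a peak of the other mark by distance in kb from the border of H3K4me3 peaks (left) and H3K27me3 peaks (right) at 5M, with bins inside the peak at negative distances; points are means and bars SDs over the 4 pairs of libraries, and colours give the strength of the peak that sets the border. Bins further inside exist only in wider peaks; beside H3K4me3 peaks of the 90th percentile or above, H3K27me3 reaches 3.67% in the first bin outside.

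Among named regions, those with both marks at high strength had wide H3K4me3 peaks and partial H3K27me3. They were the 12 in which the lower of the 2 mean percentiles was highest. H3K4me3 peaks of the top decile of strength were wide in general, with a mean of 3.69 kb. The first of the 12 was on chromosome 17 (39980000 to 39985999), with a max IP of 781.9 and 737.5 for H3K4me3. For H3K27me3 it had 634.3 and 604.5, the highest values of both lists. Elsewhere in the 12, the H3K27me3 max IP was at most 105.9 in library 1 and 150.8 in library 2. The control signal at the chromosome 17 position was not examined. Next was chromosome 1 (157587000 to 157590999), where H3K4me3 reached 657.1 and 625.1 and H3K27me3 82.2 and 101.6. On chromosome 4 (48055000 to 48062999) an H3K4me3 region of 8 kb had 3 kb with H3K27me3, and on chromosome 8 (94321000 to 94330999) a region of 10 kb had 4 kb. Chromosome 11 (4645000 to 4648999) and chromosome 4 (46355000 to 46358999) came next, each with H3K27me3 peaks of 6 or 7 kb reaching past the H3K4me3 region. Then came chromosome 1 (91823000 to 91829999), and after it chromosome 18 (53620000 to 53625999). The remaining 4 were on chromosomes 15, 7, 3 and 8. At 60M, H3K4me3 was listed in both libraries at all 12, while H3K27me3 was listed in neither 60M library at chromosome 17 (39980000 to 39985999) and chromosome 15 (85862000 to 85865999). Over all 3005 regions with both marks, H3K4me3 was in both 60M libraries at 86.1% and H3K27me3 in neither at 22.9%.

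The 6 widest regions with both marks held H3K27me3 over most of their length, as did such regions in general. Over all 3005 of them the mean share covered was 71.1%. On chromosome 11 (21892000 to 21904999) H3K27me3 covered 9.5 of 13 kb on average, and on chromosome 15 (35222000 to 35232999) 9 of 11 kb. On chromosome 4 it covered 8 of 11 kb (109647000 to 109657999) and 8 of 10 kb (99316000 to 99325999). The region of 12 kb on chromosome 7 (144504000 to 144515999) had 6.5 kb with H3K27me3 and the highest H3K4me3 rank of the 6, a mean percentile of 95.9. The last lay on chromosome 5 (75544000 to 75553999). All 6 had both marks in both 60M libraries as well. Of all 3005 regions with both marks, 86.1% had H3K4me3 and 53.0% had H3K27me3 in both 60M libraries.

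The strongest regions with H3K4me3 alone were wider than the mean H3K4me3 peak, as were top-decile H3K4me3 peaks in general (mean 3.69 kb). Their closeness in height follows from their choice by strength. The 8 with the highest mean percentile had 3 to 6 kb and a max IP of 846.6 to 866.5 in library 1 and 797 to 810.9 in library 2. Chromosome 3 (51143000 to 51146999) led with 866.5 and 810, and chromosome 4 (8616000 to 8619999) followed with 861.3 and 807.7. The others lay on chromosome 4 (151368000 to 151371999 and 62162000 to 62164999), 13 (112278000 to 112281999), 17 (30711000 to 30714999), 3 (58217000 to 58222999) and 7 (121557000 to 121561999). None of the 8 had an H3K27me3 peak in any library of 60M either, as was the case for 98.0% of all 39328 regions with H3K4me3 alone.

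The strongest regions with H3K27me3 alone had maxima well above the median H3K27me3 peak of the lists, which was 46.2 in library 1 and 48 in library 2. On chromosome 11 (3095000 to 3099999) the max IP was 523.4 and 530.5, far above the others, and the control signal there was not examined. Among the other 7 were 3 regions close together on chromosome 18 (37875000 to 37876999, 37886000 to 37889999 and 37898000 to 37900999), with 150.8 to 179.1 in library 1 and 184.2 to 218.9 in library 2. Chromosome 6 (52186000 to 52188999) had 177.8 and 217, and chromosome 16 (91302000 to 91306999) had 158.5 and 174.1. Chromosome 5 (120287000 to 120293999) and chromosome 2 (74568000 to 74569999) completed the 8. At 7 of the 8, H3K27me3 was listed in both 60M libraries, and on chromosome 11 it was listed in 1. Of all 4104 regions with H3K27me3 alone, 51.2% had it in both 60M libraries.

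Some of the strongest peaks of both marks stood border to border. On chromosome 11 an H3K4me3 peak (3092000 to 3094999, max IP 757.4 and 714) ended where the strongest region of H3K27me3 alone began. On chromosome 1 the 25 kb H3K27me3 peak from 78187000 to 78211999 (141.2 and 171) ended at a 3 kb H3K4me3 peak (578.4 and 587.2). On chromosome 7 a 5 kb H3K4me3 peak (77503000 to 77507999, 645.7 and 595) touched H3K27me3 on both sides, with 114.2 and 147 on the left and 89.9 and 142.6 on the right. The other pairs were on chromosome 10 (border at 79102000), 6 (38828000), 4 (122862000) and 19 (45152000). On chromosome 4 the H3K27me3 peak had 10 kb in both libraries.

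The X chromosome had few H3K27me3 regions for its length, and 58.4% of those also carried H3K4me3. It held 5.34 H3K27me3 regions per 10 Mb, against 25.7 to 39.6 on the autosomes, and 71.8 H3K4me3 regions per 10 Mb, against 134 to 230. Regions of H3K27me3 alone numbered 1.86 per 10 Mb on the X and 12.6 to 22.8 on the autosomes. H3K4me3 was present at 52 of the 89 H3K27me3 regions of the X (58.4%, exact interval 47.5 to 68.8%). The autosomes ranged from 36.5% on chromosome 8 to 49.2% on chromosome 3. With so few regions, the interval of the X overlapped that of chromosome 3 (44.8 to 53.7%). The share of H3K4me3 regions with H3K27me3 was lowest on the X, at 4.26% (51 of 1197, interval 3.19 to 5.56%), and ran from 5.54% on chromosome 19 to 8.62% on chromosome 14 among the autosomes. Cells of a testis carry a single X, and its part in the lower densities was not tested.

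**Figure D5:**
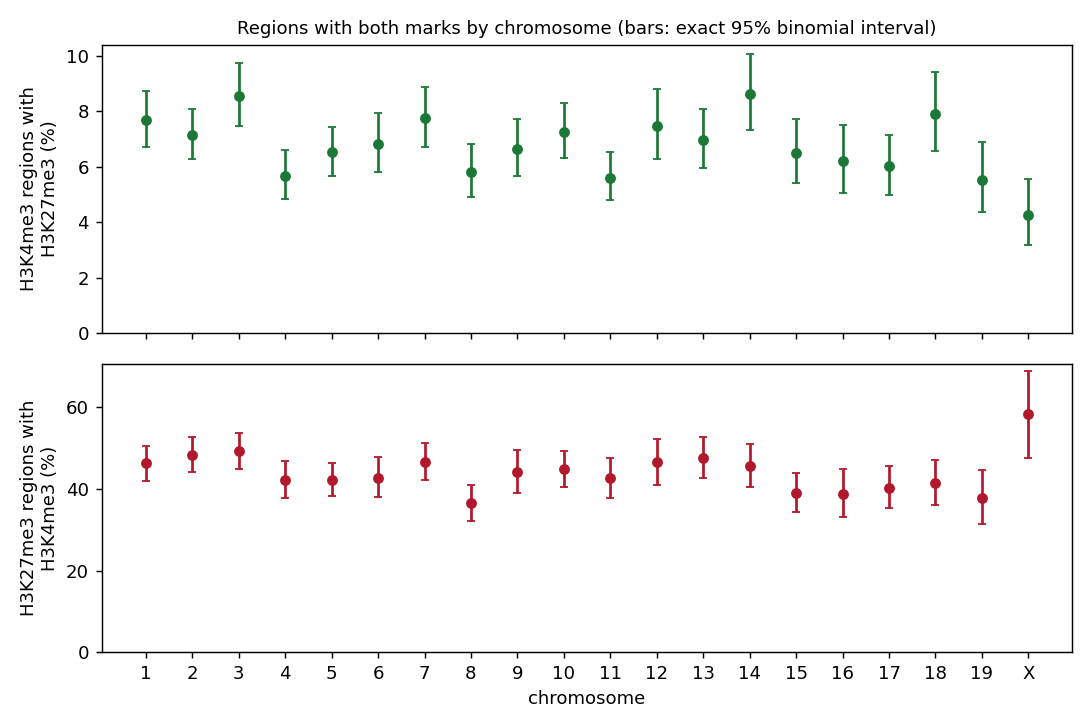
Percentage of H3K4me3 regions that carry H3K27me3 (upper panel) and of H3K27me3 regions that carry H3K4me3 (lower panel) on each chromosome at 5M; points are shares and bars exact 95% binomial intervals, which cover counting error only. The X has the lowest point above (4.26%) and the highest below (58.4%).

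Fewer peaks overlapped the other mark in both of its libraries at 60M than at 5M. The share of H3K4me3 peaks with H3K27me3 in both libraries was 6.27 and 6.58% at 5M and 4.59 and 5.03% at 60M, and the share of H3K27me3 peaks with H3K4me3 was 25.7 and 28.7% against 17.8 and 20.3%. The ages did not overlap in either share, and the two-sided exact permutation p was 0.3333 for each, the smallest possible with 2 libraries against 2. The H3K27me3 libraries of 60M also shared fewer of their regions, with 37.7% of the merged regions in both against 45.0% at 5M, and the part of this in the lower shares was not tested. By single pairs of libraries, 7.01 to 10.1% of H3K4me3 peaks overlapped H3K27me3 at 5M and 6.32 to 7.01% at 60M, so the ages met. From the side of H3K27me3 they stayed apart, with 26.5 to 32.2% of its peaks overlapping H3K4me3 at 5M and 19.8 to 23.2% at 60M. Touching H3K4me3 peaks made up 5.65 ± 0.397% at 5M and 6.86 ± 0.740% at 60M (SD, n = 4 pairs each). H3K4me3 peaks were wider with H3K27me3 at both ages, by 0.415 and 0.474 kb at 5M and by 0.687 and 0.832 kb at 60M (exact permutation p = 0.3333). The width difference of H3K27me3 peaks overlapped between the ages, at 2.30 ± 0.158 and 2.13 ± 0.191 kb (SD, n = 2 each). Weighted over width classes, the strength difference of H3K4me3 peaks was -9.18 and -7.03 points at 60M. It was negative from 2 kb on, while 1 kb peaks with H3K27me3 ranked higher at 60M, by 2.04 and 5.03 points.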

How the data were processed

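Chromatin immunoprecipitation sequencing of H3K4me3 and H3K27me3 gave 1 peak list per library. The submitters' processing notes list Bowtie 1.1.2, CASAVA 1.8.4 and the build mm10, with the peak caller not given in the sources used here. Per the file headers, the deposited lists give for each peak a q-value, a maximum immunoprecipitation signal and 2 values of −log10 p, of which 1 compares with the control; peak positions are in bins of 1000 bp. At 5M, 658 peaks on 9 of 20 chromosomes end past mm10, and 2 past mm9, by at most 688 bp (lengths from GenomeInfoDb 1.38.1). Positions were not converted, and the planned gene lists and marker checks were not analysed here.

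Calculations used Python 3.11.15, numpy 2.4.6, pandas 2.3.3, scipy 1.17.1 and matplotlib 3.10.9. Peaks of a mark's 2 libraries with at least 1 bp in common were merged. The signal was ranked within each list. Same-numbered libraries of the marks were not treated as pairs. The region code was tested on simulated data. Regions named were the 12 strongest and 6 widest with both marks, the 8 strongest with each mark alone and the 8 strongest touching pairs, by mean strength percentile. The comparisons and named regions were chosen with earlier results of these data known.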

Additional observations from a re-analysis of the deposited data

Results flagged for a closer look

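In 3 measures every 5M library lay on one side of zero and every 60M library on the other. With any overlap counted and widths together, H3K4me3 peaks with H3K27me3 ranked lower than those without it at 5M (-4.23 and -2.43 percentile points) and higher at 60M (4.68 and 8.11), a difference between the mean values of -9.72 points. Weighted over width classes the difference was negative at both ages, but in 1 kb peaks it was 2.04 and 5.03 points at 60M. H3K27me3 peaks with H3K4me3 ranked, within width classes, -2.19 and -0.0846 points from those without it at 5M. At 60M they ranked 3.25 and 1.47 points from them, so the ages differed by -3.50 points. The last of these classes pooled all peaks of at least 5 kb. The width of H3K4me3 peaks with H3K27me3 at the midpoint was -0.106 and -0.0736 kb from that of the others in the 5M libraries. In the 60M libraries it was 0.00499 and 0.245 kb, so the ages differed by -0.215 kb. The two-sided exact permutation p was 0.3333 for each, the smallest that 2 libraries against 2 allow. Whether the ages differ was otherwise not tested.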

How the results depend on the processing

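Depth is unknown, and 2 libraries per mark limit every error given. Requiring overlap of 50% of the narrower peak gave an H3K4me3 width difference (with minus without H3K27me3) of 0.242 kb, an H3K4me3 strength difference of -9.98 points and an H3K27me3 strength difference of 23.2 points. Overlap at the midpoint gave 1654 regions with both marks, a reversed H3K4me3 width difference of -0.0899 kb, H3K4me3 strength -18.3 points, H3K27me3 width 1.26 kb and H3K27me3 strength 10.9 points. Keeping only peaks at the highest listed −log10 p against the control, which leaves 2.92 and 4.71% of the H3K27me3 peaks, gave 188 regions with both marks, 136 H3K27me3 regions without H3K4me3 and 105.5 touching H3K4me3 peaks. The width differences were then 0.665 and 4.80 kb for H3K4me3 and H3K27me3, and the strength differences -5.80 and 0.247 points. Such a filter selects peaks by significance, and its own part in the strength differences was not tested. Equal list lengths moved the H3K27me3 strength difference to 27.3 points. Joining peaks within 1 kb gave width differences of 0.575 and 3.11 kb and 29.6 points of H3K27me3 strength. Within width classes the H3K4me3 strength difference was -10.7 points and that of H3K27me3 reversed to -1.14, within the spread of its libraries. The last of these classes pooled all peaks of at least 5 kb. Ranking by −log10 p of the immunoprecipitate alone gave 36.9 points for H3K27me3.

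With a replicate block (library 1 against library 1 and library 2 against library 2) there were 9368 H3K27me3 regions without H3K4me3, and the differences were 0.341 kb and -4.97 points for H3K4me3 and 27.02 points for H3K27me3 strength. The replicate differences of the marks were hardly related over the 3005 regions (Pearson -0.0829, Spearman -0.100), and the labels do not say whether same-numbered libraries share a culture, so the libraries were not treated as pairs. The crossed pairing, added after the data were seen, gave 9438.5 regions, 0.351 kb and 27.9 points. Leaving out the X chromosome, also added, moved none of the 8 results beyond its spread or 1.5 times its count.

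Each library was also left out in turn, which leaves its mark to a single library. Regions with both marks then ran from 2880 to 4532, H3K4me3 regions without H3K27me3 from 39656 to 42304, H3K27me3 regions without H3K4me3 from 4177 to 9802, and touching H3K4me3 peaks from 2489.5 to 2786.5. The H3K4me3 differences ran from 0.312 to 0.474 kb and from -5.22 to -2.43 points, and the H3K27me3 differences from 2.14 to 2.42 kb and from 27.02 to 29.0 points. Where a value moved, the cause was not tested beyond what the setting itself removes.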

Other observations

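H3K4me3 regions with both marks at 5M lay next to each other more often than regions without H3K27me3 lay next to them. The next H3K4me3 region along the chromosome also had both marks after 619 of 3003 regions with both marks (20.6%), and after 2154 of 39311 regions without H3K27me3 (5.48%). A single H3K27me3 domain can span several H3K4me3 regions, so neighbours are not independent. There were 7 runs of at least 5 such regions in a row, a feature chosen after the values were seen. The densest was on chromosome 14 (49271000 to 49294999), with 5 regions in 24 kb, of which H3K27me3 covered 23.5 kb on average. On chromosome 2 (105499000 to 105530999) 5 regions lay within 32 kb with 25 kb of H3K27me3, and on chromosome 13 (78318000 to 78350999) 5 lay within 33 kb with 25.5 kb. The median H3K27me3 percentile in these 3 runs was 97.0 to 99.1, and the median H3K4me3 percentile 28.8 to 54.2.

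H3K27me3 regions of 5M cells that carried H3K4me3 were listed in both 60M libraries in 72.9% of cases (2548 of 3493), and those without H3K4me3 in 51.2% (2101 of 4104). The former were also wider (4.90 against 2.43 kb) and ranked higher at 5M (median percentile 72.9 against 57.1), and the part of width and strength in this was not tested. Of the 4104 regions without H3K4me3 at 5M, 128 (3.12%) had H3K4me3 in both 60M libraries.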
